A study of Homo sapiens with 7 samples.

Results

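The sites described here are the MYCN summits on distal 11q, the outer stretch of the long arm of chromosome 11, in Kelly neuroblastoma cells. A summit is the base of locally highest ChIP signal inside a called interval. All summits on chromosome 11 at or above position 70000000 on hg19 were taken, with no use of their enrichment. They number 1408 of 64657 summits in the list (2.18%) and 41.9% of the 3358 summits on chromosome 11, and they lie in 1093 separate intervals that cover 414 kb.

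MYCN binding was profiled by ChIP-seq, the sequencing of chromatin fragments pulled down with an antibody. The cells were Kelly, a single established human neuroblastoma line with an amplified MYCN gene, made resistant or left sensitive to TAE684, an inhibitor of the receptor tyrosine kinase ALK. TAE684-resistant cells were kept in 1 µM TAE684 for 48 h and gave 2 MYCN ChIP samples and 2 input samples. TAE684-sensitive cells received DMSO for 48 h and gave 2 MYCN ChIP samples and 1 input sample. The lists named for resistant and for sensitive cells were identical in 64657 of 64657 rows, and every peak name in both was that of the sensitive list, so each value below describes sensitive, DMSO-treated cells. The 2 ChIP samples of each state are covered by 1 list. No value therefore has a replicate error, and no p-value across samples was possible. Intervals given below cover only the spread over summits or the counting error within the list.

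MYCN is a transcription factor of the MYC family. It pairs with MAX and prefers short DNA motifs called E-boxes, mostly at active promoters and enhancers. Its amplification marks a high-risk form of neuroblastoma, a childhood tumour of the sympathetic nervous system. Loss of distal 11q is another recurrent lesion of this tumour. By the textbook map the arm carries ATM and CHEK1, which encode kinases of the DNA damage response, H2AX, a histone variant phosphorylated at DNA breaks, KMT2A, a histone methyltransferase, and CADM1 and NCAM1, which encode cell adhesion molecules. Which summits belong to which genes was not analysed here, because no hg19 annotation or sequence was used. Sites are therefore named by position.

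MYCN sites on distal 11q were close in density to the average of the list. They were less dense than on the rest of chromosome 11, and this direction rested on the 10 Mb just below the limit. Measured to the last peak, distal 11q had 21.7 summits per Mb, against 27.9 per Mb on the rest of the chromosome. The ratio was 0.781 (95% CI 0.728 to 0.837, exact conditional binomial interval). Intervals of density ratios count each summit as independent. Neighbouring summits are not, so these intervals are too narrow. The block from 60 to 70 Mb held 769 of the 1950 summits of the rest, 76.9 per Mb. Without it, distal 11q had 21.7 per Mb against 19.7 on the remaining 60 Mb, a ratio of 1.10 (95% CI 1.02 to 1.19). Over chromosomes 1 to 22 and X the density was 21.3 per Mb. These lengths count unmappable sequence. The remaining 60 Mb include a stretch without any interval of 5.11 Mb, from 50017434 to 55125053. The block and this stretch were not left out together, so whether distal 11q is the denser without both was not tested. Summits just above the limit resembled those just below it. The first 2 inside, at 70015173 and 70037805, had fold enrichments of 3.89 and 2.55, and the last 2 outside, at 69980295 and 69962937, had 3.90 and 3.82.

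The sites were gathered at the lower end of the segment and between 110 and 120 Mb, with sparse stretches between them. By 5-Mb windows, 243 summits lay from 70 to 75 Mb, 166 from 110 to 115 Mb and 185 from 115 to 120 Mb. The outermost window, from 130 Mb on, held 96. Of 65 bins of 1 Mb, 3 held no summit and 10 held fewer than 5, while the median bin held 17. On the rest of the chromosome the median bin held 20.5 summits and 8 of 70 bins were empty. The densest distal bins began at 72 and 75 Mb, with 70 summits each. Those beginning at 119, 113 and 71 Mb held 68, 62 and 52. The densest 6 bins held 26.3% of the distal summits. The bins from 81 to 82, 90 to 91 and 99 to 100 Mb were empty, and those from 84 to 85 and 97 to 98 Mb held 1 summit each.

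**Figure D1:**
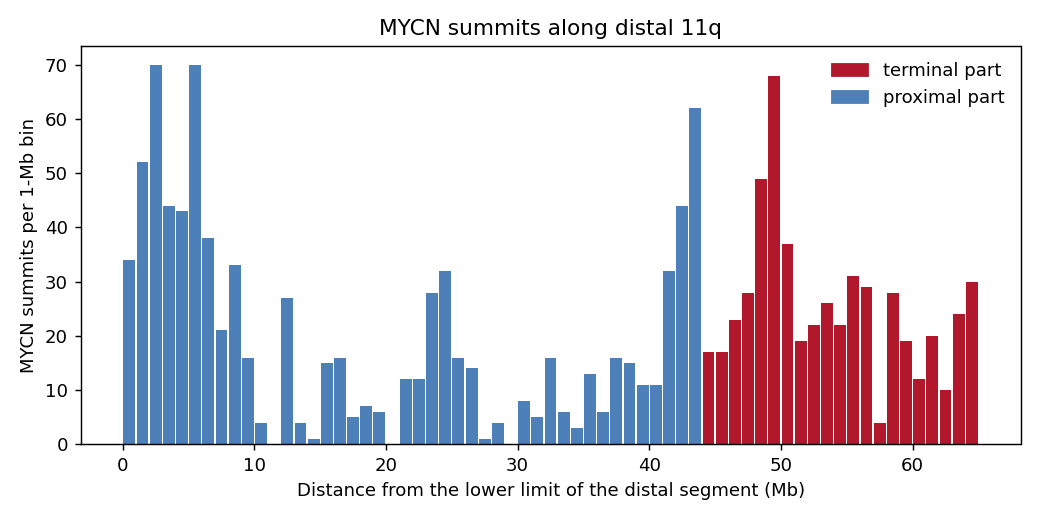
Number of MYCN summits in each 1-Mb bin of distal 11q, with bins ordered by distance in Mb from the lower limit of the segment and coloured by part (terminal part in red, proximal part in blue). Bars reach 70 summits near the lower limit and 68 in the terminal part, and 3 bins between them are empty.

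The longest stretches without an interval all lay in this sparse middle portion. They ran from 89956347 to 91592923 (1.64 Mb), from 98940889 to 100503838 (1.56 Mb), from 80898345 to 82257961 (1.36 Mb), from 84028477 to 85339342 (1.31 Mb) and from 97335178 to 98604113 (1.27 Mb). Of 12 gaps over 500 kb, only 1 ended beyond 114 Mb. The median gap between neighbouring intervals was 21.6 kb on distal 11q, against 12.6 kb on the rest of the chromosome. A neighbour within 10 kb was present for 55.4% of the distal intervals (95% CI 52.3 to 58.3) and for 66.6% of those on the rest of the chromosome (95% CI 64.1 to 69.0). Without the 60 to 70 Mb block, the rest had a median gap of 20.3 kb and a neighbour within 10 kb for 57.5% of its intervals (95% CI 54.2 to 60.9).

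Close groups of sites existed within this looser spacing. Joining intervals no more than 10 kb apart gave 722 groups, of which 488 were single intervals and 28 held 4 or more. Those 28 groups took up 140 intervals, 12.8% of the total. The largest ran from 133800734 to 133827457, spanned 26.7 kb and held 9 intervals with 10 summits, the strongest of which had a fold enrichment of 21.4. The next, from 119227070 to 119252739, held 8 intervals and reached 15.7. The group from 71948361 to 71956376 packed 7 intervals and 18 summits into 8.02 kb but reached only 7.88. The most tightly packed of these groups thus had the lowest maximum. Another short group, from 72060206 to 72070371, held 7 summits in 10.2 kb and reached 14.8.

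Fold enrichment, which is the ratio of ChIP pileup to local background, had a median of 5.68 on distal 11q with quartiles of 4.07 and 7.94. On the rest of the chromosome the median was 5.40 with quartiles of 4.0 and 7.63. The binomial 95% intervals of these medians, 5.50 to 5.89 on distal 11q and 5.30 to 5.54 on the rest, overlapped. The difference in medians was 0.28 (interval -0.04 to 0.59). It was 0.34 to 0.51, with intervals above 0, under 5 other choices of summits or limit, and 0.03 (interval -0.35 to 0.40) without the 60 to 70 Mb block. Among these choices was a −log10 q of at least 10, which itself favours a higher fold at a lower background. Fold enrichment reached 10 or more at 190 distal summits, 13.5% (95% CI 11.8 to 15.4), beside 12.0% of the whole list and 12.9% of the rest of the chromosome (95% CI 11.4 to 14.4). The distal share is thus near that of all sites. It reached 20 or more at 22 distal summits, 1.56% (95% CI 0.982 to 2.36), beside 0.778% of the whole list and 0.564% of the rest of the chromosome (95% CI 0.282 to 1.01). That is 22 summits on distal 11q and 11 on the rest. Neighbouring summits are not independent, so these intervals are too narrow, and this difference was not tested further.

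The depth behind each summit was recovered from its fold enrichment and p-value. It has 2 components, the ChIP fragments that cover the summit and the local background in input fragments. Input is sheared chromatin sequenced without antibody. Both were lower on distal 11q than on the whole of the rest. The median number of ChIP fragments was 50 on distal 11q (95% CI 48 to 53) and 61 on the rest of the chromosome (95% CI 58 to 63). The median background was 5.0 input fragments on distal 11q (95% CI 5.0 to 5.32) and 7.0 on the rest (95% CI 6.86 to 7.0), beside 7.56 over the whole list. Here too the 60 to 70 Mb block decided the difference, with medians of 78 ChIP fragments and 9.10 input fragments. Without it the rest had a median of 52 ChIP fragments (95% CI 50 to 54) and a background of 5.0.

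Along the arm the background varied, and beyond about 114 Mb it stayed low to the end of the chromosome. The median background was 8.0 in both 5-Mb windows between 70 and 80 Mb. It varied between 3.0 and 7.0 in the windows from 80 to 110 Mb and was 6.0 from 110 to 115 Mb. In the 4 windows from 115 Mb on it was 4.0, 3.78, 3.92 and 3.92, with medians of 41, 38, 36 and 34.5 ChIP fragments. The lowest window for both lay further in, from 95 to 100 Mb, with a background of 3.0 and 33 ChIP fragments over 35 summits. In single 1-Mb bins it was 8.13 from 111 to 112 Mb, 5.0 from 112 to 113 Mb, 6.0 from 113 to 114 Mb, 3.08 from 114 to 115 Mb and 2.38 from 115 to 116 Mb. The unbroken run of low backgrounds thus began between 112 and 115 Mb.

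**Figure D2:**
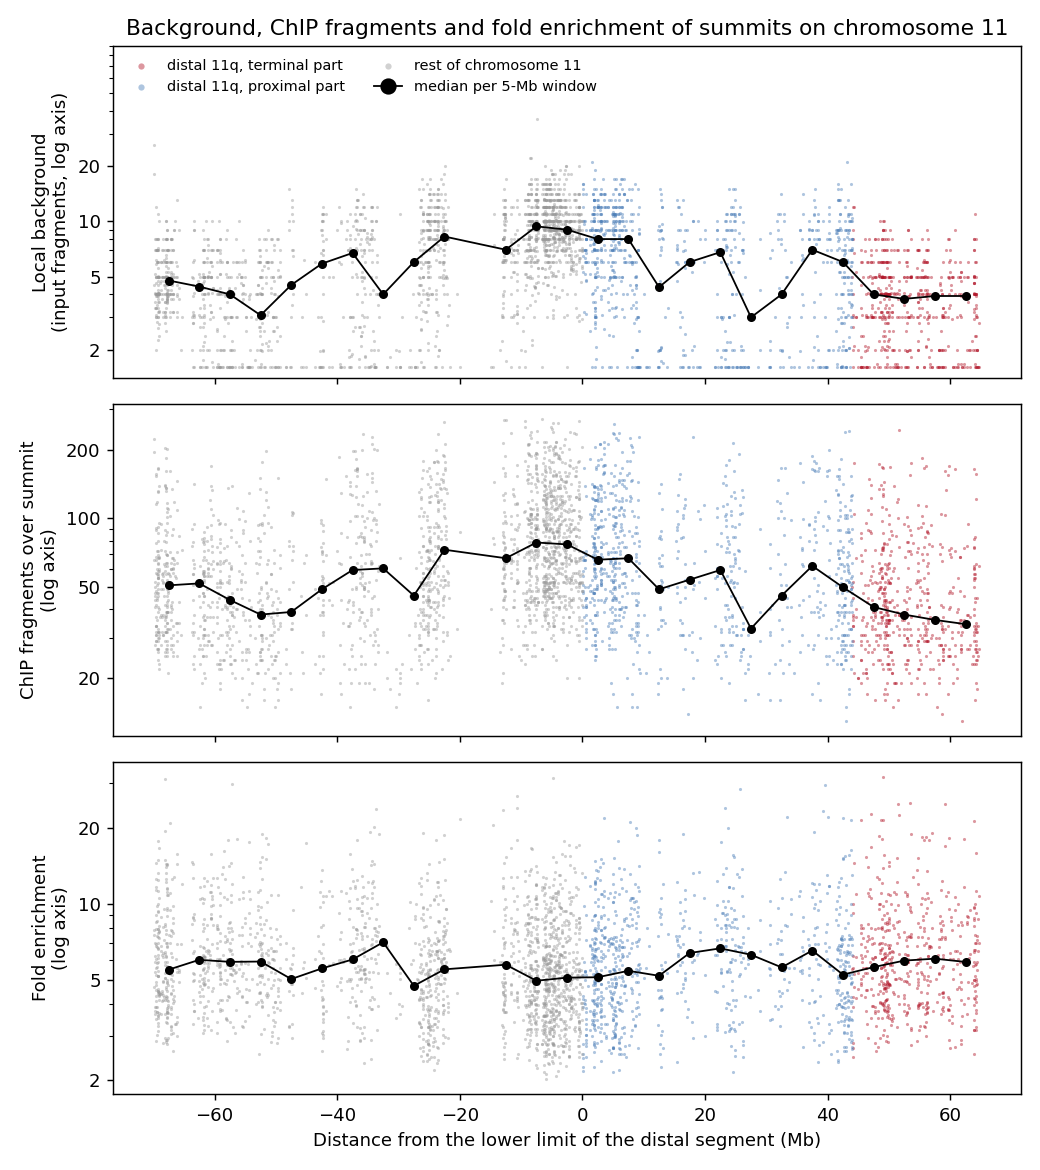
Local background, ChIP fragments and fold enrichment (log axes, top to bottom) of every summit on chromosome 11 against distance in Mb from the lower limit of the distal segment. Black points are medians of 5-Mb windows with at least 20 summits. In the terminal part (red) the window medians of background lie between 3.78 and 4.0, while those of fold enrichment stay between 5.62 and 6.07.

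The segment was therefore also described as a terminal part from 114 Mb to the end, with 535 summits, and a proximal part from 70 to 114 Mb, with 873. The terminal part is the run of 1-Mb bins up to the end of the chromosome in which every median background was under 5. This border was chosen from the background itself, so the values that follow are descriptions, and the lower terminal background is no finding. The terminal part had a median of 38 ChIP fragments (95% CI 36 to 41), against 59 in the proximal part (95% CI 56 to 63). Its median background was 4.0 input fragments (95% CI 3.64 to 4.0), against 7.0 in the proximal part (95% CI 7.0 to 7.14). The proximal medians were near those of the whole rest of the chromosome given above. The terminal values were 0.644 times the proximal ones for ChIP fragments and 0.571 times for the background. Fold enrichment differed less, with medians of 5.83 in the terminal part (95% CI 5.55 to 6.06) and 5.55 in the proximal part (95% CI 5.40 to 5.88), intervals that overlap. Where −log10 q reached 10, the terminal median was higher by 0.54 (interval 0.04 to 1.15). A filter on q itself favours a higher fold at a lower background, so this difference is partly built in. With only the strongest summit of each interval, the difference was -0.17 (interval -0.69 to 0.40).

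The upper end of the background differed more than the lower end. The choice of the border by background favours a short upper end in the terminal part, so these shares are descriptions only. No terminal summit had a background above 12 input fragments, 0 of 535, which by a limit of 3 counts allows a share of up to 0.561% (Clopper-Pearson upper limit 0.687%). In the proximal part 78 summits did, 8.93% (95% CI 7.13 to 11), and the highest value was 21. The share of summits at the genome-wide mean of 1.61 input fragments, the lowest value the peak caller allows, was 11.8% in the terminal part (95% CI 9.17 to 14.8) and 9.74% in the proximal part (95% CI 7.85 to 11.9). The 21 terminal bins of 1 Mb had median backgrounds between 2.30 and 4.90. Of the 41 occupied proximal bins, 14 also had a median under 5, and these were sparse bins with a median of 5.5 summits.

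**Figure D3:**
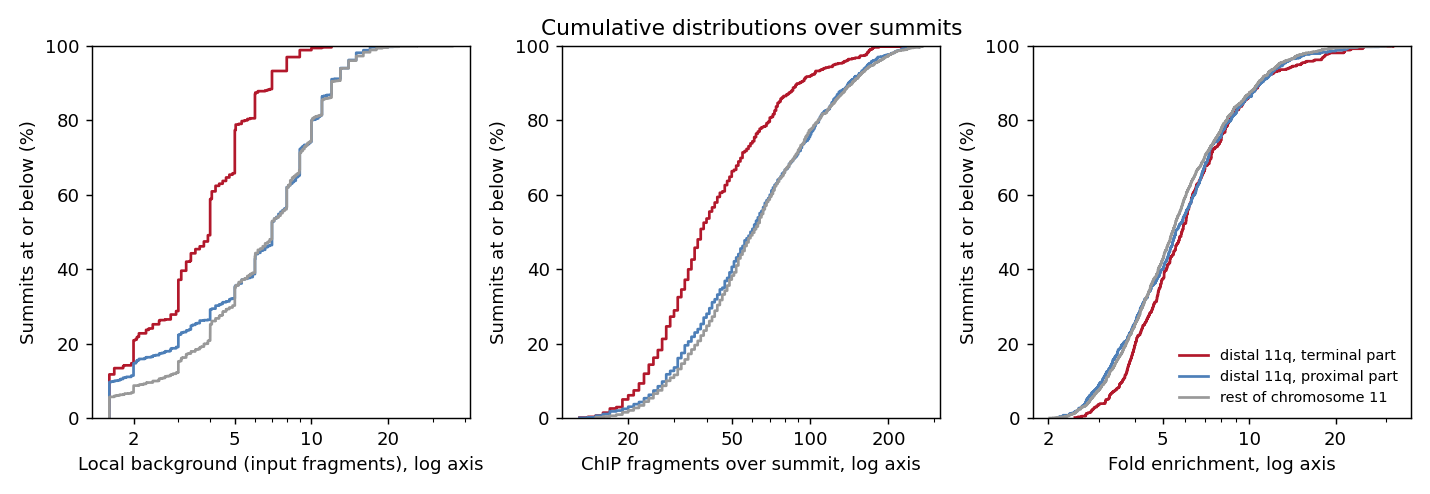
Cumulative share of summits (per cent) against local background, ChIP fragments and fold enrichment (log axes) in the terminal and proximal parts of distal 11q and on the rest of chromosome 11. The terminal curve lies to the left of both others for background (median 4.0) and ChIP fragments (median 38), while the fold enrichment curves run close together.

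The parts also differed in background within 2 kinds of input window, as the choice of the border by background would favour. MACS2 uses the highest of several input windows, and the step of the recovered value shows which. Where it was a whole number of input fragments, as for the summit itself, its median was 5.0 over 289 terminal summits and 9.0 over 512 proximal summits. Where it was a multiple of the 1-kb step, its median was 3.50 over 173 terminal summits and 6.16 over 236 proximal summits.

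Among intervals of like width the background of the parts differed too, except at the narrowest. The choice of the border by background favours this as well. In intervals of 500 to 999 bp the median background was 5.0 in the terminal part and 9.0 in the proximal part. Summits of these intervals had a median of 61 ChIP fragments in the terminal part and 90 in the proximal part, and fold enrichments of 6.45 in the terminal part and 6.10 in the proximal part. In intervals of 250 to 499 bp it was 3.96 in the terminal part and 6.16 in the proximal part. In intervals under 250 bp the background was close, 3.0 in the terminal part and 3.36 in the proximal part. Intervals of at least 1000 bp held 27 of 535 terminal summits, 119 of 873 proximal summits and 312 of 1950 summits on the rest of the chromosome. These are counts of summits, so an interval with several is counted more than once. The median fold enrichment of these summits was 7.60 in the terminal part and 5.92 in the proximal part.

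At equal background, the parts differed less in ChIP signal, and the terminal median was equal or lower in every class. With 4 to under 6 input fragments, terminal summits had a median of 47 ChIP fragments and proximal summits 48, beside 46 in the whole list. With 2 to under 4, the medians were 33.5 in the terminal part and 37 in the proximal part. With 6 to under 8, they were 57 over 68 terminal summits and 63 over 157 proximal summits, and with 8 to under 10 they were 73 in the terminal part and 75 in the proximal part. What differed more was how the summits were spread over these classes, as the choice of the border by background would favour. Backgrounds under 6 made up 14.8%, 34.4% and 31.4% of terminal summits in classes of 2 fragments, against 11.5%, 15.0% and 12.3% of proximal summits. Closeness at equal background is partly built in, since a summit over a higher background must gather more fragments to be called.

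**Figure D4:**
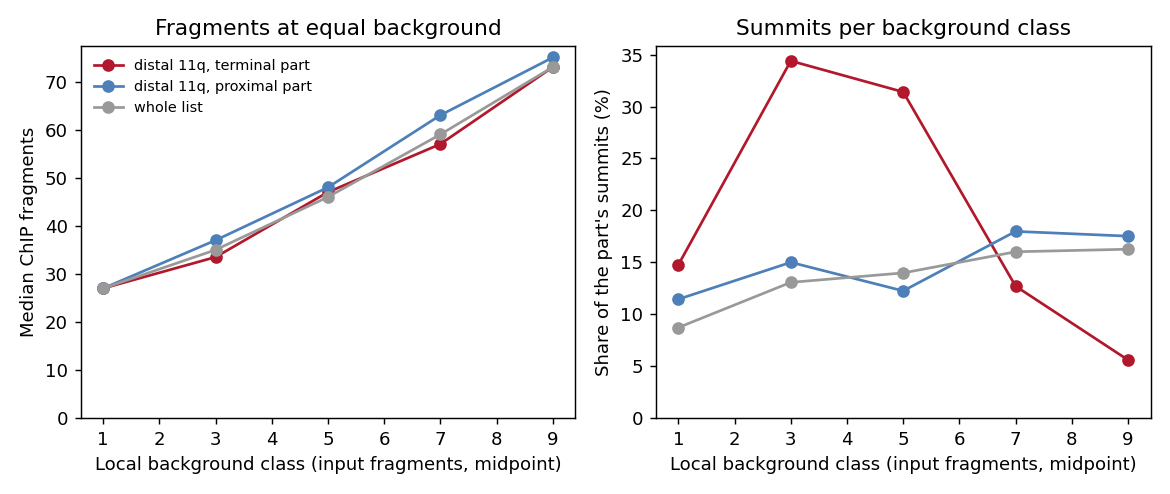
Median ChIP fragments (left) and share of summits in per cent (right) by class of local background, in steps of 2 input fragments, for the terminal and proximal parts of distal 11q and the whole list. The left curves lie close together up to a background of 10, with 47 terminal and 48 proximal fragments at a background of 4 to under 6, while the right curve of the terminal part peaks at 34.4% in the class from 2 to under 4.

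Set against the other regions of the list, the terminal part stood at the low end, as its choice by background would favour. Other chromosome regions were divided into 150 windows of 20 Mb with at least 100 summits each. Their median background ranged from 3.50 to 13.2 input fragments, and 17 windows were at or below the terminal value of 4.0. Their median number of ChIP fragments ranged from 40 to 88, and 0 windows were at or below the terminal 38. On the same chromosome, the outermost 20 Mb of the short arm had a median background of 4.06 with 46 ChIP fragments and a fold enrichment of 5.83. The long arm between the centromere and 70 Mb had a median background of 9.0 with 75 ChIP fragments and a fold enrichment of 5.08. Low backgrounds thus also occurred outside distal 11q. Copy number, which raises ChIP and input alike, was not measured, and its part in these values was not tested.

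The terminal part was the denser of the parts, although its summits had fewer fragments. It held 25.8 summits per Mb, against 19.8 in the proximal part, a ratio of 1.3 (95% CI 1.17 to 1.45). Neighbouring summits are not independent, so this interval is too narrow. Fewer fragments also mean lower significance at a given fold. The median −log10 q was 10.8 in the terminal part and 13.4 in the proximal part, and a value of at least 10 was reached by 54.6% of terminal summits (95% CI 50.3 to 58.9) and 62.7% of proximal summits (95% CI 59.4 to 65.9). How many weaker terminal sites missed the threshold of the list cannot be read from it. Spacing was alike by this measure, with a neighbour within 10 kb for 55.4% of the intervals in each part.

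Of the 10 strongest sites by fold enrichment, 6 lay in the terminal part, which holds 38% of the distal summits. Also 6 were alone in their interval, near the share of 61.2% among all distal summits. The first, from 118972304 to 118973108, had its summit at 118972890 with a fold enrichment of 31.8. It was covered by 166 ChIP fragments (95% exact Poisson interval 142 to 193) over a background of 2.38, and it ranked 47th in the whole list. A site from 109514901 to 109515231 reached 29.7 with 119 fragments (95% interval 98.6 to 142), and one from 95745350 to 95745709 reached 28.4 with 114 (95% interval 94.0 to 137). Both of these proximal sites had a background at the genome-wide mean of 1.61. By their fragment intervals these 2 cannot be ordered.

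Next came 3 terminal sites of nearly equal fold enrichment. They lay from 123431732 to 123432092 (25.1), from 121543276 to 121543597 (24.98) and from 129148477 to 129149959 (24.9). The last of these is a wide interval of 1483 bp with 3 summits. Proximal sites from 93246944 to 93247357 and from 109213563 to 109213930 reached 23.9 and 23.3. Terminal sites from 117014610 to 117015546 and from 121593006 to 121593976 closed the 10 with 22.7 and 22.5. The background at these 10 summits ran from 1.61 to 6.0 input fragments. A rank by fold favours such sites, because the background divides it.

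Ranked by ChIP fragments, the leading sites were others and almost all proximal, as the choice of the border by background would favour. Over the whole list the median rose from 27 ChIP fragments at a background under 2 to 110 at 12 or more. The 10 summits with most fragments had 224 to 258, and only 1 of them was terminal. That was the site from 121593006 to 121593976, with 244 fragments (95% interval 214 to 277) over a background of 6.0, and it was the 1 site shared with the 10 highest by fold. The highest number, 258 (95% interval 227 to 291), was found from 75140680 to 75141873, where a background of 10.0 gave a fold enrichment of 15.1. Sites from 113461839 to 113462294 and from 112831785 to 112832270 followed with 241 and 239. Of these 10 sites, 6 lay between 70 and 80 Mb. The 2 windows of 5 Mb there held 243 and 178 of the 1408 distal summits, each with a median background of 8.0. The site from 75110393 to 75111072 had 235 fragments but a fold enrichment of 8.43, as its background was 17.0. Another summit tied with the last of the 10 at 224 fragments and was placed after it by its lower fold.

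In shape the distal intervals resembled those of the rest of the chromosome. Their median width was 265 bp with quartiles of 186 and 457, against 286 bp with quartiles of 195 and 537 on the rest. A single summit was found in 78.8% of distal intervals (95% CI 76.2 to 81.2) and in 75.6% of the rest (95% CI 73.3 to 77.8), intervals that overlap. Within distal 11q, 82.2% of terminal intervals (95% CI 78.3 to 85.7) and 76.5% of proximal intervals (95% CI 73.0 to 79.7) held 1 summit. Intervals with 4 or more summits numbered 2 of 439 in the terminal part, 0.456% (95% CI 0.0552 to 1.64). In the proximal part they numbered 16 of 654, 2.45%, beside 2.63% in the whole list and 2.72% on the rest of the chromosome. The proximal share was thus near that of the whole list, and the terminal share rests on 2 intervals.

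Intervals with more summits carried higher maxima. The median of the highest fold enrichment in a distal interval was 5.86 over 861 intervals with 1 summit, 7.09 over 168 with 2 and 8.05 over 64 with 3 or more. A highest value grows with the number of summits it is drawn from. Neighbouring summits in the same interval were a median of 285 bp apart on distal 11q and 287 bp on the rest of the chromosome. They were 248 bp apart in the terminal part and 300 bp in the proximal part. The widest distal interval, from 78127433 to 78129544, had 3 summits over 2112 bp and a highest fold enrichment of 10.6. Intervals from 73018408 to 73020306, from 75378298 to 75380156 and from 75945794 to 75947617 spanned 1899, 1859 and 1824 bp and reached 7.85, 6.74 and 10.9. The fifth, from 112832997 to 112834597, spanned 1601 bp and lies next to the site at 112831785 named above. The only distal interval with 5 summits ran from 71948636 to 71950141 and reached 7.07. All 5 of the widest intervals, and the interval with 5 summits, were proximal.

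Across the 62 occupied distal bins, the number of summits had a Spearman correlation of 0.424 with the median background and -0.270 with the median fold enrichment. These are descriptions only, since bins share 1 library, its depth and neighbouring sequence.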

How the data were processed

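MYCN ChIP and input samples of Kelly cells were sequenced, and the deposited peak lists are on hg19. Per the submitters' processing notes, MACS2 2.1.1, STAR 2.5.1b, deepTools 2.2.4, SAMtools 1.3.1 and Picard were used. Their settings, duplicate handling and the merging of the 2 ChIP samples are not described there. The deposited columns are the authors' fold enrichment (a ratio), −log10 p-value, −log10 q-value, an integer score (10 times the −log10 q-value) and the summit offset. They were used only to describe and rank peaks within the list.

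Fold and p-value of each summit were solved together for whole ChIP fragments and local background, with the relations MACS2 uses. A scale of 0.641 matched 64657 of 64657 summits within 0.0005 in −log10 p, and at 24 of them 2 numbers met this tolerance and the closer was taken. The procedure was tested on simulated data. A first version, which rounded the scaled fragment number down once, missed many simulated summits at scales that make it a whole number. Both roundings are now tried there, which recovered the simulated numbers and changed no fragment number in the list. Backgrounds were rounded to 0.001. Positions count from 1.

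Medians carry binomial order-statistic intervals and shares exact Clopper-Pearson intervals, both at 95%. They treat summits or intervals as independent draws, which neighbouring ones are not, so they are too narrow. They cover no replicate error, and the reads carry no molecular identifiers. An interval of a difference in medians was formed by subtracting opposite ends of the 2 median intervals. Sites named were the 10 summits of highest fold and of most ChIP fragments, the 5 widest intervals, those with most summits, the 5 densest and emptiest bins, the 5 longest gaps and the summits next to the limit. The groups of close intervals were chosen after their values were seen. Members and rules were chosen with earlier results of these data known. The fixed gene list, promoter shares and E-box counts were not computed, as no hg19 annotation or sequence was used here. Python 3.11.15, numpy 2.4.6, pandas 2.3.3, scipy 1.17.1 and matplotlib 3.10.9 were used.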

Additional observations from a re-analysis of the deposited data

How the results depend on the processing

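No paired analysis was possible because 1 list stands for the 2 ChIP samples of each state, and no replicate could be left out for the same reason. The density ratio of distal 11q to the rest of the chromosome, 0.781, was 0.725 with a −log10 q of at least 10, 0.722 over occupied bins, 0.667 and 0.608 with the limit at 75 and 80 Mb, and 0.724 without the longest stretch lacking an interval. Without the block from 60 to 70 Mb it was 1.10, the opposite direction. That value still counts the length of the longest stretch, which was not left out together with the block. The difference in median ChIP fragments, -11, was -18 with the limit at 80 Mb and -2 without that block. That in median background, -2, was -2.24 and -3 with the limit at 75 and 80 Mb and 0 without that block. The difference in median fold enrichment, 0.28 with an interval that includes 0, was 0.34 to 0.51 with intervals above 0 under all 5 alternatives other than leaving out that block, where it was 0.03. In 500-kb bins the densest 10% held 31.0% of the summits. Between the terminal and proximal parts, the difference in median fold enrichment, 0.28, changed sign to -0.17 when only the strongest summit of each interval was counted. There the difference in median background, -3, was -2.22. With summits alone in their interval it was -1.64 and the difference in ChIP fragments, -21, was -11. With a whole-number background it was -4. In these cases the cause was not tested. Of 47 alternatives, 31 stayed within the interval of the reported value, and 30 of these kept its direction. Of the 47, 2 had the opposite direction. The omitted stretch, the omitted block and all alternatives for the terminal part were chosen after seeing the data. Alternatives for sequence and genes were not run, as no hg19 genome was used here. The fewest ChIP fragments at a listed summit rose with the local background. They were 13 at a background under 2, 22 at 4 to under 6 and 43 at 12 or more. Weaker sites were not detectable at this depth, and the number needed thus varied with the background.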
